A study of Caenorhabditis elegans with 6 samples.

Results

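A set of 26 Caenorhabditis elegans genes without a gene name was read in intestinal cells of first-stage larvae and was at or near 0 counts in dividing cells of the other tissues. The genes were chosen from 14605 worm gene rows of the deposited count table, of which 5868 carried only a sequence name in the RefSeq gene table or were not matched there. A chosen gene had at least 10 CPM (counts scaled to a library total of 1000000 worm gene counts) in each intestinal library and at most 3 counts in each non-intestinal library. These limits read the same counts that are described here, so the levels and the contrast between the cell types are given as a description, with no test. The study compared 3 libraries of intestinal cells with 3 of cells from outside the intestine, labelled as dividing at the first larval stage, L1. Each library came from a pool of 500 cells that, per the series title, had a 4N DNA content. All 6 libraries came from animals with the transgene ccyIS27, in which elt-2p, the promoter of the intestinal gene elt-2, drives a red membrane reporter (mCherry-PH) joined through P2A to a red histone reporter (H2B-mCherry). Messenger RNA was read by an adapted CEL-seq protocol, which tags and sequences the 3′ ends of transcripts. The labels do not say which tissues made up the non-intestinal pools.

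The intestine of C. elegans is a tube of epithelial cells that digests bacteria, takes up and stores nutrients, and forms a main front of defence against microbes and toxins. Its cells are specified by GATA factors, and ELT-2 is regarded as the main activator of genes in the differentiated intestine. A worm gene is given a name of letters and a number once it has been tied to a phenotype, a family or a biochemical activity. Until then it keeps its sequence name, which gives the genomic clone it was found on and its place there. The annotation used here gives no role for the 26 genes, and none is assigned to them below.

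Where 3 values of a group follow each other, they are those of replicates 1, 2 and 3. The worm gene rows of the intestinal libraries summed to 16946197, 21040813 and 1222704 counts, and those of the non-intestinal libraries to 4912430, 19968366 and 1576441 counts. A limit of 3 counts therefore stood for different levels, namely 0.611, 0.15 and 1.9 CPM in the non-intestinal group. The labels call the libraries biological replicates, without saying whether they came from separate cultures.

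The labelled tissue was checked against lists of named genes. The GATA factor elt-2 was at 512, 662 and 74 counts in intestinal libraries, against 1, 38 and 0 counts in non-intestinal libraries. The reporter of these animals is driven by the elt-2 promoter. If that reporter served to pick the cells, elt-2 is no independent check of the label. By edgeR, 13.5% of the 9203 tested genes were called higher in intestinal cells and 7.64% lower, at a Benjamini-Hochberg adjusted p under 0.05. Of 52 tested genes on 5 lists of intestinal function, 46 were called higher, with a median log2 fold change of 5.88. With aex-4 and ftn-1, at 0 in all non-intestinal libraries, set to their floor bounds it was 5.77. The median over all tested genes was −0.34. Scaling by library totals alone moved that median to −0.84 and the share of calls that were higher from 63.9% to 44.4%, with 45 of the 52 genes called higher.

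Each function of the intestine was represented. Among regulators, 5 of 7 were called higher, including elt-2, elt-7, elt-4, pqm-1 and nhr-8, while hlh-30 and nhr-49 had adjusted p-values of 0.42 and 0.31 (edgeR). Genes of the brush border and its filament sheath were called in 8 of 10 cases. Their actin act-5 had 3296, 3424 and 3901 CPM in the intestinal libraries, against 38.9, 144 and 152 CPM in the non-intestinal ones. The membrane linker erm-1 was not called (edgeR adjusted p = 0.058, and 0.002 with the replicate number as a block). Digestive enzymes were called in 12 of 13 cases, among them the cathepsin-like protease gene cpr-6 with 268, 184 and 195 CPM in intestinal and 1.42, 4.01 and 1.90 CPM in non-intestinal libraries. Transporters and pumps were called in 8 of 9 cases, with the peptide transporter gene pept-1 at 337, 313 and 174 CPM against 2.85, 6.01 and 1.90 CPM, and aqp-4 not called (edgeR adjusted p = 0.066, and 0.019 with the block). Genes of metal and lipid handling were called in 13 of 13 cases. Only 2 of the 55 intestinal list genes in the table met the same count limits as the 26 unnamed genes, the sodium-proton exchanger gene nhx-2 and the acyl-CoA synthetase gene acs-7.

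Lists of markers were read for 5 other tissues. Germline markers were called lower in 12 of 14 cases, or 14 with the replicate number as a block, and their summed level was 56.4 to 215 CPM in intestinal against 2294 to 2884 CPM in non-intestinal libraries. Muscle markers were called lower in 1 of 11 cases, the titin-like gene ttn-1, and in 4 with the block, with a summed level of 968 to 2523 CPM in intestinal libraries and 2953 to 7810 CPM in non-intestinal libraries. Epidermal and seam markers had 1 of 8 genes called higher, elt-3 (edgeR adjusted p = 0.049, and 0.057 with the block), and 1 called lower, nhr-23, or 2 lower with the block. Their sums were 49.9 to 120 CPM in intestinal and 401 to 565 CPM in non-intestinal libraries. Neuronal markers had 1 of 10 called higher, the neuropeptide-processing gene egl-21, with sums of 271 to 734 CPM in intestinal and 428 to 704 CPM in non-intestinal libraries. None of 7 pharyngeal markers was called by edgeR, where 1 had an unadjusted p under 0.05, and DESeq2 and the fit with the block called 0. All 7 had a negative log2 fold change, and the pharyngeal myosin gene myo-2 had 181, 153 and 21.3 CPM in intestinal against 402, 504 and 587 CPM in non-intestinal libraries (edgeR adjusted p = 0.18, and 0.079 with the block). The pharyngeal sum was 532, 479 and 49.9 CPM in the intestinal libraries, against 1091 to 1340 CPM in the non-intestinal libraries. At 0 in all intestinal libraries were nos-2 of the germline list, myo-3 of the muscle list, and nhr-73 and sqt-3 of the epidermal list. Their non-intestinal counts were low too, with 0, 2 and 0 for nos-2 and 1, 1 and 0 for myo-3. They were 0, 5 and 0 for nhr-73 and 0, 16 and 0 for sqt-3. The pharyngeal gene phat-2 was at 0 in all non-intestinal libraries, with 0, 0 and 6 counts in intestinal ones. None of these genes was tested. Whether RNA of other cell types added to the levels of the 26 genes was not tested. In pools of cells, fewer cells of a type and less RNA per cell cannot be told apart.

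The 26 genes were 0.443% of the unnamed rows. With a gene name, 19 of 8737 rows met the same limits, or 0.217%, and over all rows the share was 0.308%. Taken alone, the intestinal limit was met by 978 unnamed and 2722 named genes. The non-intestinal limit alone was met by 1452 unnamed and 1464 named genes. Of the genes with at least 10 CPM in each intestinal library, 2.66% of the unnamed and 0.698% of the named ones also met the non-intestinal limit. The unnamed genes at 10 CPM or more were lower in level, with a median of mean CPM of 52.7, against 70.6 for the named ones. All 26 genes passed the expression filter of edgeR and all 26 were called higher, where 13.5% of tested genes were. Nothing is read from that count, because the limits fixed it. Among all tested genes, 14% of 3123 unnamed and 13.3% of 6080 named genes were called higher.

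**Figure D1:**
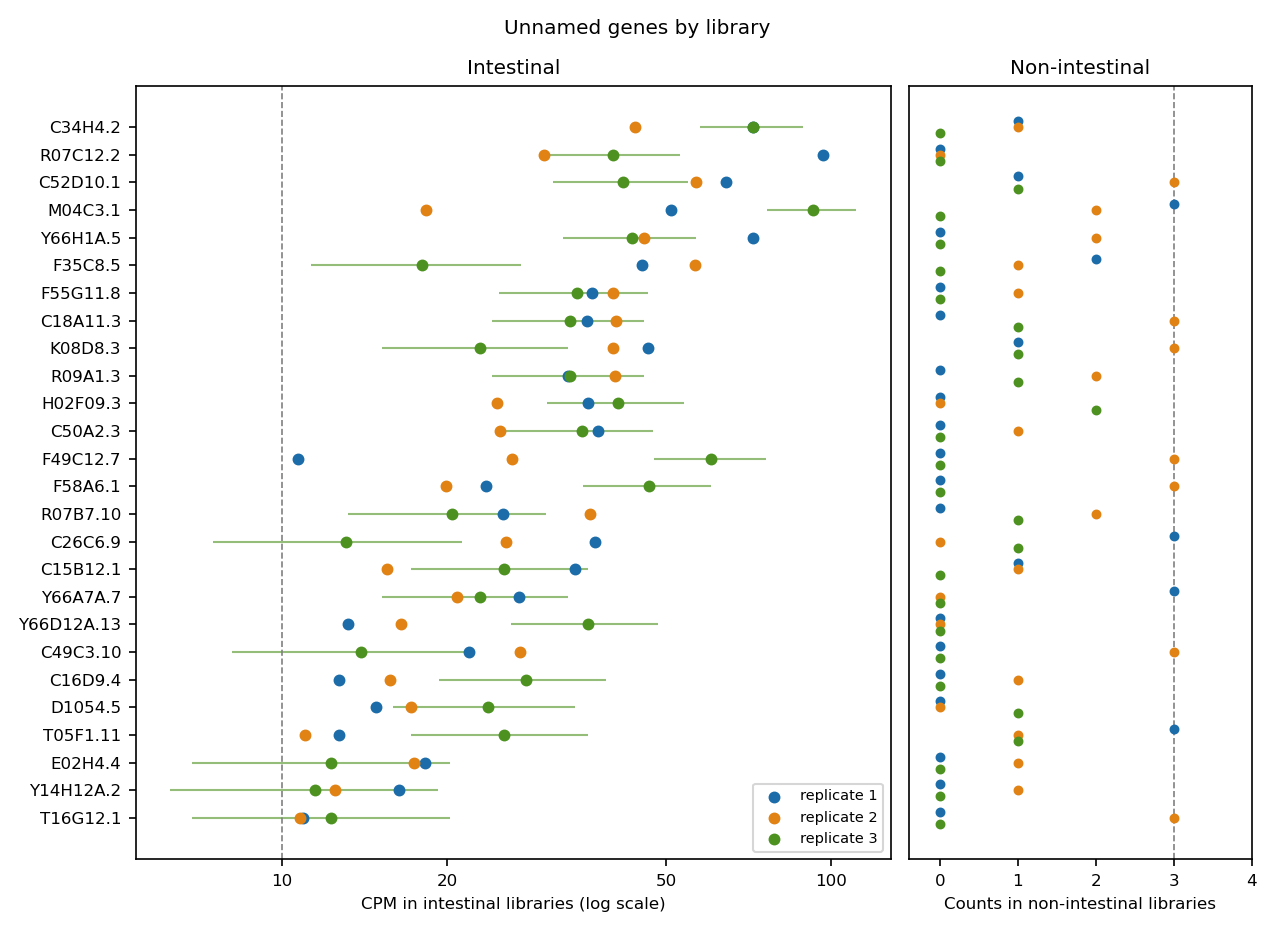
Levels of the 26 unnamed genes in each library, ordered by their mean over the intestinal libraries. The left panel gives CPM in intestinal replicates on a log axis, with the exact 95% Poisson interval of replicate 3 as a line and the limit of 10 CPM dashed, and the right panel gives raw counts in non-intestinal replicates with the limit of 3 counts dashed. Mean levels run from 62.6 CPM for C34H4.2, whose points for replicates 1 and 3 coincide, down to 11.3 CPM for T16G12.1.

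The plot of levels by library shows a set of moderately expressed genes. Their medians were 33.7, 25.2 and 30.7 CPM in the intestinal libraries. Together they took 905, 734 and 860 CPM, or 0.0905%, 0.0734% and 0.086% of the worm gene counts. The median gene stood at percentiles 75.7, 70.6 and 65.1 of the genes detected in those libraries. Because 3′ counting reads 1 end per transcript, CPM was not divided by gene length.

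The gene with the highest mean was C34H4.2, with 72.0, 43.9 and 72.0 CPM in intestinal libraries, against non-intestinal counts of 1, 1 and 0. It lies on chromosome IV at 1553752 to 1555567 on the plus strand (WBcel235), and its 6 exons encode 449 codons. R07C12.2 came next with 96.4, 30 and 40.1 CPM and had 0 counts in all 3 non-intestinal libraries. Both annotations give R07C12.2 as a pseudogene, with 7 exons at 4148141 to 4150055 on the plus strand of chromosome IV. It was the only pseudogene of the set. Against a floor of 3 counts in each non-intestinal library, a mean of 0.888 CPM, its mean was at least 62.5-fold higher. Reads of a pseudogene can be shared with its parent gene, and how the counting treated such reads is not given in the sources used here.

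C52D10.1 had 64.4, 56.8 and 41.7 CPM in intestinal libraries, and 1, 3 and 1 counts in non-intestinal ones. This row was matched neither in the RefSeq table nor in the Ensembl annotation, so its position is not given. M04C3.1 had 51, 18.3 and 92.4 CPM, and 3, 2 and 0 counts. It lies on chromosome V at 19437899 to 19445605 on the minus strand, with 8 annotated transcripts, the most of the set, and up to 1162 codons. Y66H1A.5 had 71.9, 45.6 and 43.3 CPM, and 0, 2 and 0 counts. It is a short gene of 3 exons and 217 codons on the minus strand of chromosome IV (428070 to 429133). These 5 genes averaged between 53.6 and 62.6 CPM, while the next one, F35C8.5, averaged 39.9 CPM.

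A second tier averaged between 32.5 and 39.9 CPM. F35C8.5 on chromosome X had 45.3, 56.5 and 18 CPM in the intestinal libraries, with 2, 1 and 0 counts in the non-intestinal ones. F55G11.8 on chromosome IV had 36.6, 40 and 34.4 CPM, with 0, 1 and 0 counts. C18A11.3 on chromosome X had 35.9, 40.6 and 33.5 CPM, with 0, 3 and 1 counts. The last 2 genes were thus almost level across the intestinal libraries, whereas F35C8.5 was low in replicate 3. K08D8.3 on chromosome IV had 46.3, 40 and 22.9 CPM against 1, 3 and 1 counts. R09A1.3 on chromosome V had 33.2, 40.4 and 33.5 CPM against 0, 2 and 1 counts. H02F09.3 on chromosome X had 36.1, 24.6 and 40.9 CPM against 0, 0 and 2 counts. H02F09.3 encodes 1275 codons and shares exonic bases with a neighbour on the same strand, H02F09.2, so reads may be divided between them. C50A2.3 on chromosome IV had 37.6, 24.9 and 35.2 CPM, with 0, 1 and 0 counts in non-intestinal libraries. F49C12.7 on the same chromosome had 10.7, 26.2 and 60.5 CPM, with 0, 3 and 0 counts. The mean of F49C12.7 therefore rests most on replicate 3, the shallowest intestinal library, where it had 74 counts.

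The third tier averaged between 21 and 30 CPM. F58A6.1 on chromosome II had 23.5, 19.9 and 46.6 CPM in intestinal libraries, and R07B7.10 on chromosome V had 25.3, 36.4 and 20.4 CPM. C26C6.9 on chromosome I had 37.1, 25.6 and 13.1 CPM, and C15B12.1 on chromosome X had 34.2, 15.5 and 25.4 CPM. The order of the replicates differed from gene to gene, with replicate 3 highest for F58A6.1 and lowest for R07B7.10 and C26C6.9. Y66A7A.7 on chromosome III, the shortest coding gene with 81 codons, had 27, 20.8 and 22.9 CPM. Y66D12A.13, also on chromosome III, had 13.2, 16.5 and 36.0 CPM. C49C3.10 on chromosome IV had 21.9, 27.1 and 13.9 CPM. Y66D12A.13 had 0 counts in all 3 non-intestinal libraries, the only gene besides R07C12.2, and its mean was at least 24.6-fold above the floor. In the other 6 of these genes the non-intestinal counts summed to between 2 and 4 over the 3 libraries.

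The remaining 6 genes, C16D9.4, D1054.5, T05F1.11, E02H4.4, Y14H12A.2 and T16G12.1, averaged between 11.3 and 18.7 CPM. T16G12.1 was the lowest and at the same time the steadiest, with 10.9, 10.8 and 12.3 CPM in intestinal replicates. Its mean lies near the limit of 10 CPM, which bounds its spread. It is the longest coding gene of the set, with 1890 codons in 30 exons on chromosome III (10040181 to 10049857). Neighbouring genes in the order of means mostly differed by less than their spread. The step from C34H4.2 (62.6 ± 16.2 CPM) to R07C12.2 (55.5 ± 35.8 CPM), for example, was smaller than either SD (n = 3 each).

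The limits cut through a continuum. Just inside the intestinal limit were F49C12.7, T16G12.1 and T05F1.11, whose lowest intestinal libraries had 10.68, 10.84 and 11.03 CPM. Just outside were Y43F8B.13, C36B1.13 and R05D7.7 with 9.981, 9.458 and 9.363 CPM, all 3 in intestinal replicate 2. On the non-intestinal side, 11 of the 26 genes had 3 counts in 1 or more library, for instance C52D10.1, M04C3.1 and K08D8.3. Excluded with 4 counts in 1 library were C44F1.1, F56D5.6 and F13H8.11, and 9 unnamed genes in all had a highest non-intestinal count of 4 to 6.

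Non-intestinal replicate 2, the deepest of its group, set most of the membership. The 26 genes summed to 18, 38 and 10 counts in the non-intestinal libraries, which is 3.66, 1.9 and 6.34 CPM, against 905, 734 and 860 CPM in the intestinal libraries. They were at 0 counts in 17, 6 and 17 cases. A wider group of 92 unnamed genes met the intestinal limit and had at most 3 counts in non-intestinal replicates 1 and 3. The other 66 of these had from 4 to 197 counts in replicate 2, with a median of 28. The gene elt-2 itself, at 38 counts in that library, was of that kind. A count at or under 3 is a statement about detection at these depths, and lower expression in non-intestinal cells cannot be told apart from a few intestinal cells or free RNA in a pool.

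**Figure D2:**
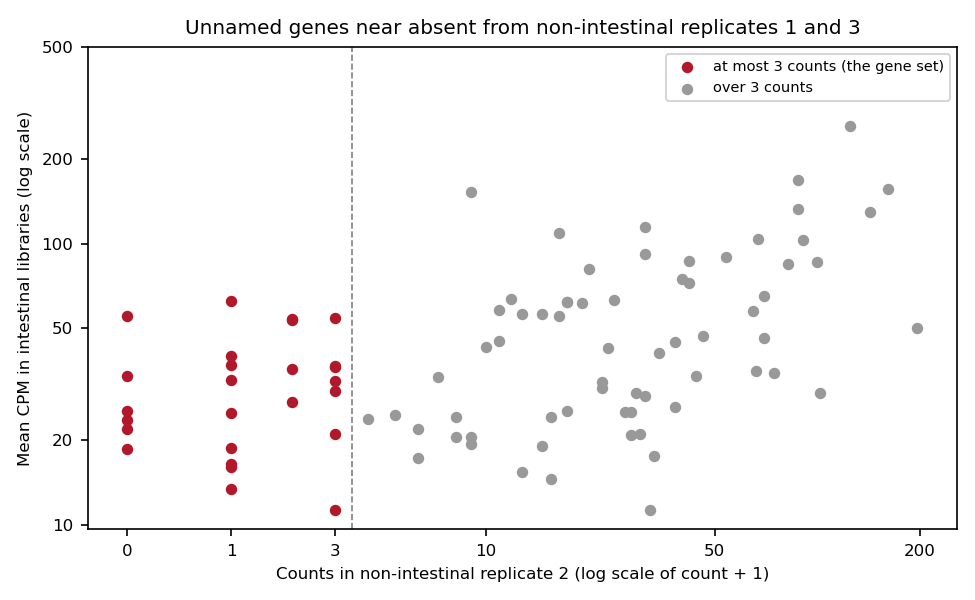
Counts in non-intestinal replicate 2 (log scale of the count plus 1) against mean CPM in intestinal libraries (log scale) for the 92 unnamed genes with at least 10 CPM in each intestinal library and at most 3 counts in non-intestinal replicates 1 and 3. Red points are the 26 genes at 3 counts or fewer, left of the dashed line, and grey points are the 66 genes with 4 to 197 counts.

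The intestinal replicates were then compared for each gene. The limit of 10 CPM in each library leaves a gene with a mean near it little room to vary. The ratio of the highest to the lowest CPM had a median of 1.72 over the 26 genes, against 1.9 over the 3700 genes of any name with at least 10 CPM in each intestinal library. The groups differed in level, with a median of mean CPM of 31.2 for the 26 genes. In the wider group it was 52.7 for unnamed and 70.6 for named genes. For 15 genes the 3 libraries lay within 2-fold of each other. The 4 steadiest were T16G12.1, F55G11.8, C18A11.3 and R09A1.3, with ratios of 1.13, 1.16, 1.21 and 1.22. The 4 most variable were F49C12.7, M04C3.1, R07C12.2 and F35C8.5, with ratios of 5.67, 5.06, 3.22 and 3.14. These 4 did not vary in the same direction, since the highest library was replicate 3 for F49C12.7 and M04C3.1, replicate 1 for R07C12.2 and replicate 2 for F35C8.5.

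**Figure D3:**
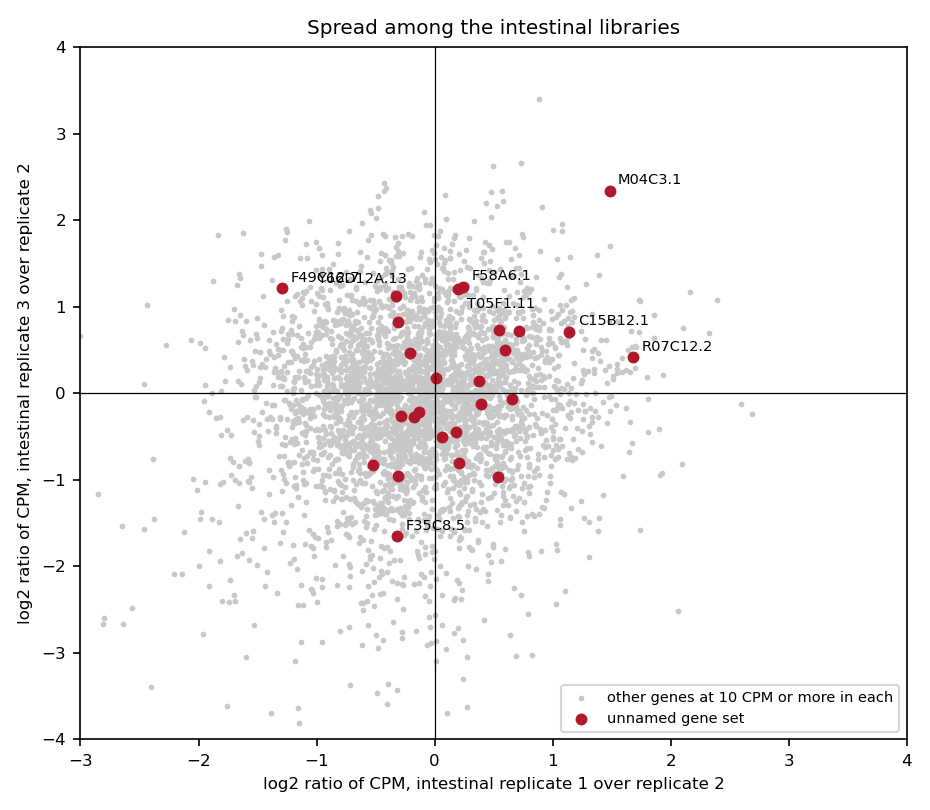
Log2 ratio of CPM in intestinal replicate 1 over replicate 2 (horizontal) and in replicate 3 over replicate 2 (vertical). Red points are the 26 unnamed genes, labelled where either ratio passes 1 on the log2 scale, and grey points are the other genes with at least 10 CPM in each intestinal library, of which 5 lie outside the axes. The red points scatter in all directions, from F49C12.7 on the left and F35C8.5 at the bottom to M04C3.1 at the upper right.

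Part of this spread lay within counting error. Replicate 3 gave 14 to 113 counts per gene, and its exact 95% Poisson interval, which covers counting error only, held the CPM of both other intestinal libraries for 7 of the 26 genes. For 6 genes the whole interval lay above both other libraries, and for 4 it lay below both. M04C3.1 was of the first kind, with an interval of 76.2 to 111 CPM against 51 and 18.3 CPM, and F35C8.5 of the second, with 11.3 to 27.2 CPM against 45.3 and 56.5 CPM. The highest library was replicate 1 for 11 genes, replicate 2 for 6 and replicate 3 for 9, while for all 3700 genes the shares were 31.1%, 31.2% and 37.8%. Those 26 genes had median ratios of 1.14 for replicate 1 over replicate 2 and 1.12 for replicate 3 over replicate 2, against 0.921 and 0.969 for all 3700 genes.

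Genes with a name that met the same limits were of a similar level. The 26 unnamed genes had a median of mean CPM of 31.2 and a highest mean of 62.6 CPM, and for the 19 named ones these were 27.1 and 53.5 CPM. Highest among the named were prmt-6, acs-7 and cgr-1, at 53.5, 44.8 and 42.9 CPM. Other names on that list include nhx-2, the potassium channel gene kqt-2, the nuclear hormone receptor genes nhr-99, nhr-115 and nhr-232, the C-type lectin genes clec-76 and clec-210, and the glucuronosyltransferase gene ugt-49. The median ratio of highest to lowest intestinal library was 1.72 for the unnamed genes, against 2.04 for the named ones.

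Gene structure, which the limits did not use, was read from the Ensembl annotation of WBcel235 for 25 of the 26 genes. Of these, 24 were protein-coding. Their coding length had a median of 384 codons, against 293 codons for the 5428 unnamed coding genes of the table, 360 for all 14068 coding genes and 420 for the 19 named genes under the same limits. Short genes were few: 2 of the 24 had under 200 codons, where 30.6% of unnamed coding genes and 20.6% of all coding genes did. At the other end 6 of the 24 had over 500 codons, against 18.1% of unnamed and 29.1% of all coding genes. The 19 named genes under the same limits were alike in this, with 2 under 200 and 6 over 500 codons. The median number of exons was 7 in the 25 genes, 7 in the 19 named genes and 5 among unnamed coding genes. A single transcript was annotated for 21 of the 25. The longest annotated 3′ untranslated region of each gene, the part that CEL-seq reads reach first, had a median of 129 bases over the 23 coding genes with one annotated, against 126 bases among unnamed coding genes, and ran from 46 bases in F35C8.5 to 1029 bases in T05F1.11. These are descriptions of a small set, and no test was made.

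**Figure D4:**
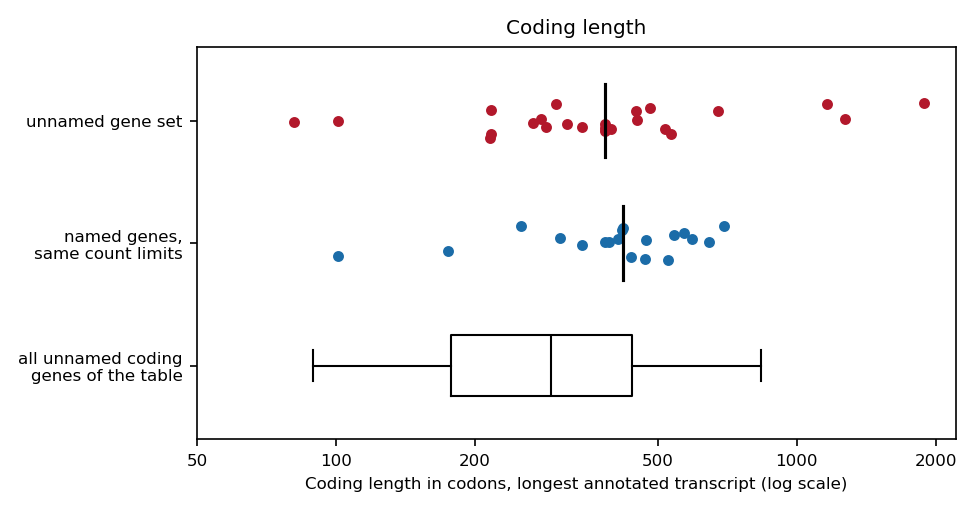
Coding length in codons of the longest annotated transcript, on a log axis. Points are the 24 coding genes of the unnamed set and the 19 named genes under the same count limits, with the median as a black line, and the box gives the quartiles of all 5428 unnamed coding genes of the table with whiskers at the 5th and 95th percentiles. The median of the unnamed set, 384 codons, lies right of the box's median of 293.

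The 25 placed genes were spread over all 6 chromosomes, with 8 on IV, 5 on V, 5 on X, 3 on III, 2 on I and 2 on II. Chromosome IV thus held 32.0% of them, where it held 16.4% of the unnamed rows of the table. The plus strand had 12 and the minus strand 13. None lay next to another one. On the annotation 7 of the 25 shared exonic bases with another gene, 2 of them on the same strand, H02F09.3 with H02F09.2 and F49C12.7 with F49C12.6. The strand setting of the counting is not given in the sources used here, so the counts of these 7 genes are less certain.

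The next coding gene on each side was read in the whole-table fit, since those genes were not chosen by the limits. Of 50 such neighbours, 44 were in the table and 28 were tested. The edgeR test called 11 of the 28 higher in intestinal cells, or 39.3%, beside 13.5% of all tested genes, and 3 lower, beside 7.64%. The median log2 fold change of the neighbours was 0.76, against −0.34 for all tested genes. Leaving out neighbours whose span overlaps the unnamed gene gave 10 of 24. The count rested on 1 library: without intestinal replicate 1 it was 3 of 26, or 11.5%, beside 8.74% of all genes tested in that fit. With all libraries and no expression filter, 13 of 44 neighbours were called higher, or 29.5%, beside 9.85% of all genes.

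The neighbours called higher included both named and unnamed genes. K08D8.4, next to K08D8.3, had 79.5, 47.3 and 74.4 CPM in intestinal libraries and 1.22, 1.5 and 1.90 CPM in non-intestinal ones (log2 fold change 5.97 ± 0.76 SE, edgeR adjusted p = 0.00068). Beside H02F09.3, kola-1 had 498, 277 and 233 CPM against 17.3, 32.7 and 14.6 CPM (log2 fold change 4.49 ± 0.66 SE, edgeR adjusted p = 0.0013). On its other side, H02F09.2 had 7.02, 5.04 and 5.73 CPM and 0 counts in all non-intestinal libraries, at least 6.68-fold above the floor. K08D8.4, kola-1 and H02F09.2 were the 3 neighbours called higher that stayed so whichever of the 6 libraries was dropped from the fit. Of these, H02F09.2 shares exonic bases with H02F09.3 on the same strand, so some of its reads may be those of H02F09.3. The unconventional myosin gene hum-8, beside Y66H1A.5, and the gene dod-22, beside F55G11.8, were called with adjusted p-values of 0.029 and 0.027 (edgeR), but hum-8 lost its call without intestinal replicate 1 or non-intestinal replicate 1, and dod-22 without those or without intestinal replicate 2. The remaining 6 called neighbours were tag-244, C25F9.14, M04C3.2, C49C3.9, D1054.8 and Y14H12A.1, with log2 fold changes from 3.95 to 6.41. C34H4.1, beside C34H4.2, was not called (edgeR adjusted p = 0.074, and 0.038 with the replicate number as a block).

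Other neighbours were expressed mainly outside the intestine. Beside Y66D12A.13, ztf-29 had 0.826, 2.42 and 1.64 CPM in intestinal libraries and 31.8, 40.1 and 81.8 CPM in non-intestinal ones (log2 fold change −4.47 ± 0.85 SE, edgeR adjusted p = 0.0047). T16G12.3, beside T16G12.1, had 0.472, 1.71 and 4.09 CPM against 66, 50.7 and 125 CPM (log2 fold change −5.11 ± 0.90 SE, edgeR adjusted p = 0.0033). The meiotic gene lab-1, which overlaps T05F1.11 on the other strand, had 0 counts in all intestinal libraries and was at least 2.51-fold below the non-intestinal level (edgeR adjusted p = 0.026, and 0.059 with the replicate number as a block), and 1 of 5 fits without a library kept that call. So genes on opposite sides of this contrast lay side by side at Y66D12A.13 and T16G12.1, and, with an unstable call, at T05F1.11. Widely expressed genes occurred as well, such as the G protein subunit gene goa-1 beside C26C6.9, with 646, 740 and 806 CPM in intestinal and 1164, 1014 and 1223 CPM in non-intestinal libraries (edgeR adjusted p = 0.79). The muscle gene dim-1, beside C18A11.3, had 145, 149 and 22.9 CPM in intestinal and 624, 355 and 180 CPM in non-intestinal libraries (edgeR adjusted p = 0.26, and 0.03 with the block).

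The 2 closest pairs of the set were examined further, a choice made after their distance was seen. K08D8.3 (12903785 to 12906659, minus strand) and F55G11.8 (12962808 to 12964645, plus strand) lay 56.1 kb apart on chromosome IV with 18 coding genes between them. Of those, 10 were in the table and 6 were tested. All 6 were called higher in intestinal cells, beside 13.5% of all tested genes. Apart from K08D8.4, these genes passed the expression filter only through their intestinal counts, which favoured that call. Without the filter 6 of 10 were called higher, beside 9.85% of all genes. The named ones of the 6 tested genes were irg-6 and dod-24. They come from screens for infection response genes and for genes downstream of the factor DAF-16. The highest was C32H11.4, with 142, 76.4 and 239 CPM in intestinal libraries and 0.204, 0.451 and 1.27 CPM in non-intestinal ones (log2 fold change 8.64 ± 0.91 SE, edgeR adjusted p = 0.00034). For dod-24 the values were 89.3, 82.6 and 133 CPM against 0, 2.30 and 0 CPM (log2 fold change 6.97 ± 1.2 SE, edgeR adjusted p = 0.0029). The values of irg-6 were 45.6, 42.8 and 9.81 CPM against 0, 2.15 and 0 CPM (edgeR adjusted p = 0.0154). In each of these genes the lowest intestinal library was above the highest non-intestinal one. The share of all genes with that order was not counted.

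K08D8.5 and C32H11.3 were nearer the threshold, with edgeR adjusted p-values of 0.0495 and 0.0427. K08D8.4 is the sixth, and dod-22 follows directly after F55G11.8. The other 4 genes of the table in this stretch, srz-15, srlf-4, F55G11.1 and F55G11.7, had less than 1 CPM in every library, so the stretch was not uniform. Leaving out intestinal replicate 1 left 3 of the 6 called, K08D8.4, C32H11.4 and dod-24. Similar copies may lie among these genes, and reads shared between copies were not tested for.

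**Figure D5:**
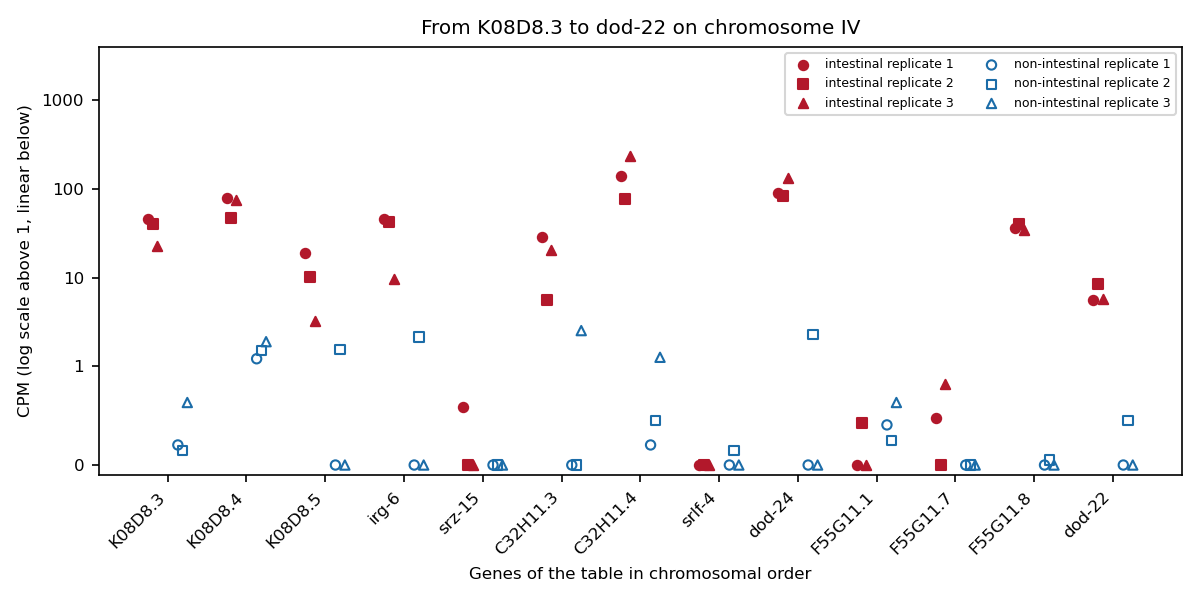
CPM of the genes of the table from K08D8.3 to dod-22 in chromosomal order, on an axis that is logarithmic above 1 and linear below. Filled red symbols are the 3 intestinal libraries and open blue symbols the 3 non-intestinal libraries. In the 6 tested genes between K08D8.3 and F55G11.8 and in dod-22, every intestinal library lies above every non-intestinal one. The share of all genes with this order was not counted. The limits set this order for K08D8.3 and F55G11.8, while srz-15, srlf-4, F55G11.1 and F55G11.7 stay under 1 CPM.

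The second pair showed another picture. Y66D12A.13 (11548370 to 11552398, plus strand) and Y66A7A.7 (11628230 to 11629454, minus strand) lay 75.8 kb apart on chromosome III, with 15 coding genes between them, of which 8 were tested. The edgeR test called 0 of the 8 higher, also at an unadjusted p under 0.05 and by DESeq2, and it called 3 lower, ztf-29, Y66D12A.6 and the homeobox gene ceh-92, or 5 with the replicate number as a block. The gene ceh-92 had 0.118, 0.618 and 4.09 CPM in intestinal libraries and 34.4, 36.3 and 58.4 CPM in non-intestinal ones (log2 fold change −4.97 ± 1.17 SE, edgeR adjusted p = 0.0131). Leaving out 1 library gave from 2 to 5 genes called lower, where intestinal replicate 3 was absent in the fit with 5 and non-intestinal replicate 2 in the fit with 2. The remaining gaps between neighbouring members of the set on a chromosome were 396 kb or more.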

How the data were processed

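Counts per gene were deposited by the authors in 1 table of 15472 rows, and the submitters' processing notes name STARsolo 2.7.10a and the builds WBcel235 and ce11. The strand setting, the treatment of reads that match several genes and the annotation version are not given in the sources used here. Of the rows, 14605 were worm genes, and 825 RIT rows, 41 spike-in rows and 1 reporter row stayed out of library sizes and tests; these took 0.377% to 0.796% of the counts. Names were read from the RefSeq gene table, where 14387 worm rows matched and 218 did not, and gene structure from the Ensembl release 115 annotation of WBcel235, where 14393 matched.

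CPM was computed over worm gene counts. The comparison of 3 intestinal with 3 non-intestinal libraries was fitted over all genes with the edgeR 4.0.16 quasi-likelihood test (TMM, filterByExpr, R 4.3.3). Benjamini-Hochberg adjustment and a threshold of 0.05 were used. The fit was also tested on simulated data, in which all genes had the same spread between libraries. That spread was not fitted to these data. P-values set the difference between the groups against the spread between these libraries. DESeq2 1.42.0, other scalings, other filters, leaving out each library and the replicate number as a block were tried as alternatives. Deviations of same-numbered libraries of both groups had correlations of 0.278, 0.157 and 0.279, against −0.256 to 0.0695 for different numbers. Whether the numbers pair the libraries cannot be told, since replicate 2 was the deepest and replicate 3 the shallowest in both groups. The main fit did not use the numbers. No libraries agreed within sampling noise.

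The 26 genes, the marker lists (5 intestinal lists, germline, muscle, epidermis and seam, neurons, pharynx) and the tests were chosen with earlier results of these data known. Named are the 20 genes with the highest mean, the 4 most and 4 least variable between intestinal libraries, those nearest each limit, examples of each list and the neighbours that were called. Outside this rule, the uncalled neighbours goa-1, dim-1 and C34H4.1, the overlapping gene F49C12.6 and examples of named genes under the same limits are given too. The 6 lowest genes and the genes of both chromosome stretches were added after their values were seen. The block on the other tissues' lists, the neighbours without overlap and the alternatives for both stretches were chosen after seeing the data. Poisson intervals at 95% and floors of 3 counts cover counting error only.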

Additional observations from a re-analysis of the deposited data

Results flagged for a closer look

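Rows outside the worm genes also held counts. The RIT rows, whose meaning the files do not give, had 7892 counts in the intestinal library with fewest. The spike-in rows had 95 counts in the intestinal library with fewest. Both were seen because no comparison uses these rows, and they do not enter the levels of the 26 genes.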

How the results depend on the processing

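The size of the set followed its limits. It held 2, 10 and 47 genes with at most 0, 1 and 10 non-intestinal counts, 102 genes with the CPM of 3 counts in the smallest library as the limit, and 48, 12 and 0 genes at 5, 20 and 50 intestinal CPM. Thinning every library to the smallest total gave 101 genes, 22 of them shared with the 26, and leaving out 1 library gave 28 to 92, the highest without non-intestinal replicate 2. The median level of the 26 genes stayed between 30.6 and 34.7 CPM.

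Calls over all genes numbered 1949, or 21.2% of those tested, with 3057 by DESeq2, 842 at an adjusted p under 0.01 and 986 to 1913 without 1 library. With the replicate number as a block there were 2299 calls, 48 of the intestinal list genes and 12 neighbours called higher. Neighbours called higher numbered 7 with at least 10 counts in 3 libraries, 3 at an adjusted p under 0.01, and 3 to 13 without 1 library. Between K08D8.3 and F55G11.8, 3 genes were called higher at 0.01 and 3 to 5 without 1 library. Between Y66D12A.13 and Y66A7A.7, 5 were called lower with the block, 1 at 0.01, and 2 to 5 without 1 library. The cause was not tested. Of 1085 single-gene fold changes under alternatives, 1018 kept their call, 43 lost it, 24 gained it and 0 reversed. Promoter motifs, hydropathy and identity between proteins were not run, since no promoter or protein sequences were used here. Depth limits the non-intestinal side, where 3 counts stand for 0.15 to 1.9 CPM.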
